A study of Mus musculus with 8 samples.

Results

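Ketone body genes of the mouse testis were examined in bulk RNA-seq libraries from whole testis, with 4 libraries labelled valine and 4 labelled control. The genes were 6 in number of 55414 in the deposited table: Oxct1, Oxct2a and Oxct2b, which encode the enzyme that opens ketone body breakdown, Bdh1, and the monocarboxylate carriers Slc16a1 and Slc16a7. They were chosen by name with their FPKM in these 8 libraries and their differences between valine and control already known, so their own differences are given below as values with an error and without a p-value. All 6 exceeded the minimum of 1 FPKM, taken over the mean of the 8 libraries, that was set for testing, and 22077 genes did so in all. The labels give testis as the tissue of every library and valine or control as the treatment. The strain, age, dose, route and duration are not given in the sources used here, nor whether each library came from a separate animal, so every p-value below measures only the spread between these libraries, which may be technical.

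Ketone bodies are small fuels made in mitochondria from acetyl-CoA. Synthesis begins with a thiolase and leads to acetoacetate, and BDH1 interconverts acetoacetate and beta-hydroxybutyrate in either direction. Ketone bodies and lactate cross membranes through the proton-coupled carriers MCT1, encoded by Slc16a1, and MCT2, encoded by Slc16a7, and are burned in tissues that hold succinyl-CoA:3-ketoacid CoA-transferase. OXCT1 is that enzyme in somatic cells, and in the mouse OXCT2A and OXCT2B are testis forms made in haploid germ cells, from genes without introns. Of the 6 genes only Bdh1 bears on synthesis, and it serves breakdown as well.

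Oxct2a and Oxct2b lie on mouse chromosome 4 in opposite orientation, each within the span and on the strand of a BMP8 gene, Bmp8a for Oxct2a and Bmp8b for Oxct2b, with 0 exon bases shared. Their start regions are shown because both genes stood higher with valine and because they show how alike the copies are around their starts. Each sequence is the RefSeq window in build GRCm38.p6, 250 bases before to 50 bases after the start, on the strand of the gene, with chr4:123323630-123323929 on the minus strand for Oxct2a and chr4:123115998-123116297 on the plus strand for Oxct2b. Capitals mark TGACG, the core of the cAMP response element, searched on both strands.
Oxct2a: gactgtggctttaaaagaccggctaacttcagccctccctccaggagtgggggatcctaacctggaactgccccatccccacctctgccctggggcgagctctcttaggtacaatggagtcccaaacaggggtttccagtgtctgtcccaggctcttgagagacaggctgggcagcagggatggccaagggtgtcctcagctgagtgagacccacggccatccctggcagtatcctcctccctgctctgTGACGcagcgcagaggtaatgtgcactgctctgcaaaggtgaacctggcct
Oxct2b: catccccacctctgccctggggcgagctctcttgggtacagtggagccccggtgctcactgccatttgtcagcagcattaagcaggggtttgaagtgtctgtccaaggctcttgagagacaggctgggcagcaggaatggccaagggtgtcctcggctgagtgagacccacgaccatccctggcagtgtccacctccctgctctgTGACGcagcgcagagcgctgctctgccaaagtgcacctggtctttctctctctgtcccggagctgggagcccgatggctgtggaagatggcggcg
The match began 1 base before the start in Oxct2a and 45 bases before it in Oxct2b. The 2 windows were identical at 204 of 256 aligned positions (79.7%), with a longest shared run of 33 bases. TGACG is common: 20.8% of 32851 mouse promoter windows of the same length hold it, and it was not found in the windows of Bdh1, Oxct1 or Slc16a1. The full palindrome TGACGTCA, found in 1.79% of windows, was in none of those shown or named here. GGGCGG, found in 35.7% of windows, and TATAAA, found in 13.6%, were searched as well. Both had 0 matches in the Oxct2a and Oxct2b windows, while GGGCGG had 1 match in the Slc16a1 window and 1 in a Bdh1 window. The entry for Slc16a7 was not found. These matches describe letters in a window and say nothing of binding.

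The transcripts of the pair are closer still. Reference transcripts of Oxct2a (1760 bases) and Oxct2b (1735 bases) were identical at 98% of 1735 aligned positions, and 41.7% of the 50-base windows of Oxct2a also occurred in Oxct2b. Against Oxct1 the identity was 70.4% for Oxct2a and 70.5% for Oxct2b, over 1405 aligned positions, and 0 windows of 50 bases were shared. Reads from the stretches that the germ cell copies share could be assigned to either gene, so the split between Oxct2a and Oxct2b is uncertain. Their sum is the safer measure if such reads were counted. The counting program is not given, and if it left them out the sum would be too low. Oxct1 shared no such stretch with either copy, so the germ cell share of transferase FPKM would then be too low as well.

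The libraries were of even depth. Fragment totals recovered from the deposited values (17379437 to 19820684 in the valine libraries and 16741648 to 19405600 in the control libraries) put 4666 to 5680 fragments of Oxct2a in each valine library and 3838 to 4723 in each control library. Bdh1, the gene with the fewest, had 346 to 430 fragments in the valine libraries and 262 to 403 in the control libraries. The sum of FPKM over all genes differed between the groups, at 1027662 to 1070524 in the valine libraries and 944659 to 974626 in the control libraries, without overlap. Control replicate 1 stood apart in its markers of neighbouring tissue: the 6 fat markers summed to 86.2 FPKM there, against 31.2 to 40.6 FPKM in the valine libraries and 30.7 to 39.5 FPKM in the other controls. Fat markers also differed between the groups: Cfd, Car3 and Plin1 lay lower in every valine library than in every control library. Adipoq gave 30.0 to 38.6 FPKM of the sum in valine libraries and 27.2 to 34.9 FPKM in control libraries. Its groups overlapped, as did those of Fabp4 and Lep. Epididymis markers, 5 in number, summed to 5.46 FPKM in control replicate 1. Their sum was 0 to 0.590 FPKM in the valine libraries and 0.211 to 1.08 FPKM in the other controls. Without that library the log2 difference of Bdh1 was 0.04, in place of 0.16 with it, and those of Oxct2a, Oxct2b and Slc16a1 were 0.31, 0.28 and -0.29.

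The germ cell transferases were the most abundant of the 6 genes and stood higher in the valine testes. Oxct2a measured 399, 383, 424 and 434 FPKM in valine replicates 1 to 4, against 349.65, 326.5, 323 and 345 FPKM in control replicates 1 to 4. Every valine library lay above every control library. The mean was 410.1 ± 23.4 FPKM in valine libraries and 336 ± 13.2 FPKM in control libraries (SD, n = 4 each), a log2 difference of 0.29 ± 0.05 (SE) on the log2(FPKM + 1) scale. Because 1 is added, the change of a gene near 1 FPKM comes out too small on it. Oxct2b measured 351, 329.6, 382 and 373 FPKM in the valine libraries, against 285, 281, 306 and 297 FPKM in the control libraries. Again the groups did not overlap, and valine replicates 3 and 4 were the highest for both copies. The means were 359 ± 23.4 FPKM in valine libraries and 292 ± 11.3 FPKM in control libraries, a log2 difference of 0.29 ± 0.06.

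Summed, Oxct2a and Oxct2b came to 769 ± 46.1 FPKM in the valine libraries (713 to 807) and 628 ± 14.6 FPKM in the control libraries (608 to 641), so the sum was 1.22 times as high with valine. As counted, Oxct2a made up 53.4 ± 0.552% of the sum in valine libraries and 53.5 ± 1.56% in control libraries. This split depends on how reads from the shared stretches were assigned, which is not known. The host genes of the pair were far lower, and were looked at after the values of the pair had been seen. Bmp8a, a germ cell ligand of the BMP family, averaged 2.61 FPKM in valine libraries and 2.50 FPKM in control libraries. Bmp8b, its near relative, averaged 2.18 FPKM in valine libraries and 1.56 FPKM in control libraries. Neither passed the limma test at an adjusted p of 0.05, with adjusted p-values of 0.862 for Bmp8a and 0.262 for Bmp8b.

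**Figure D1:**
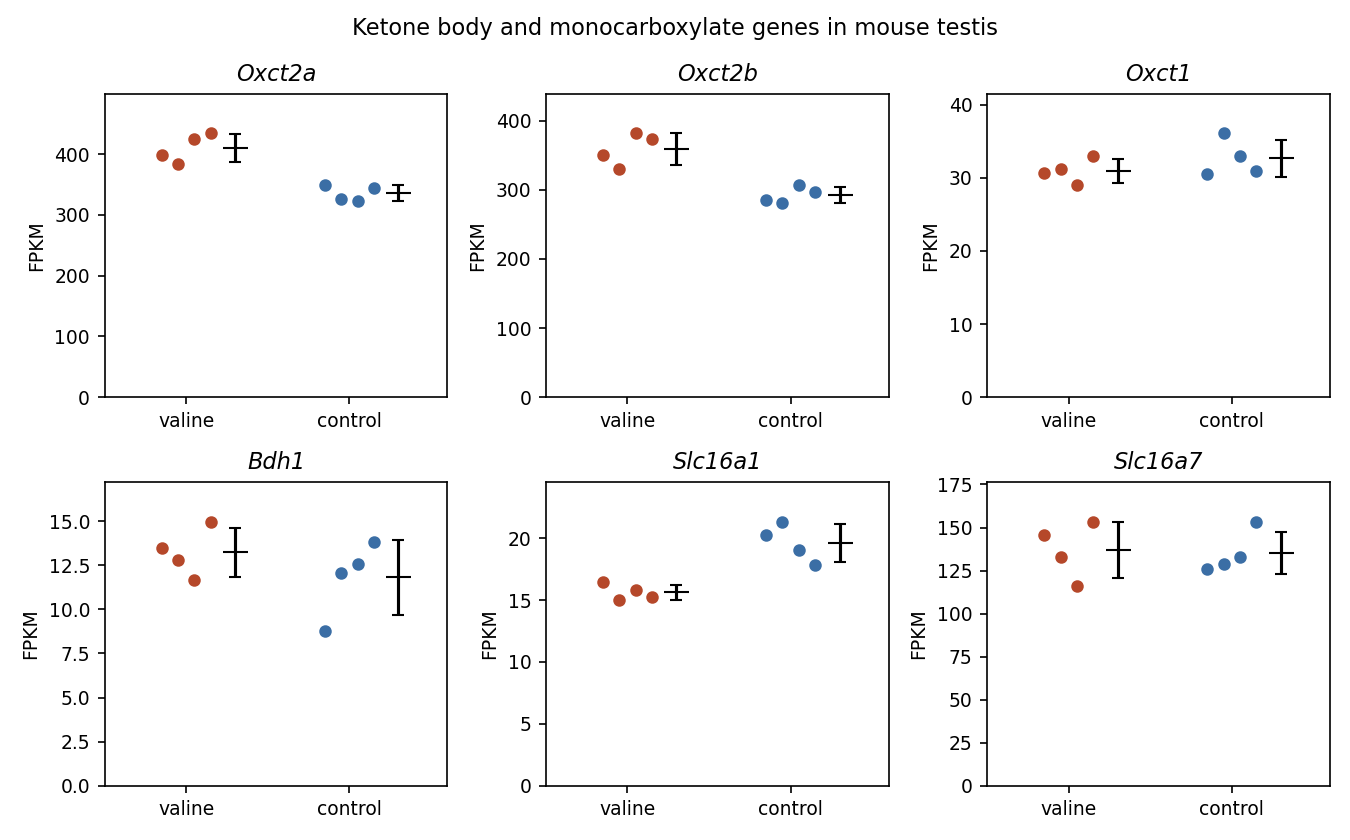
FPKM of the 6 genes in each library on linear axes that start at 0, with valine in red and control in blue, replicates 1 to 4 from left to right, and the bar giving the mean ± SD. The valine libraries lie above all control libraries for Oxct2a and Oxct2b and below all of them for Slc16a1, while the groups overlap for Oxct1, Bdh1 and Slc16a7.

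Oxct1, the somatic transferase, showed no such separation. It measured 30.7, 31.3, 29.0 and 32.9 FPKM in the valine libraries, against 30.6, 36.1, 33.0 and 30.9 FPKM in the control libraries. The ranges overlapped, and the highest value came from control replicate 2 and the lowest from valine replicate 3. The means were 31.0 ± 1.63 FPKM in valine libraries and 32.7 ± 2.54 FPKM in control libraries, a log2 difference of -0.07 ± 0.07. Oxct2a and Oxct2b therefore supplied 96.1 ± 0.303% of all transferase FPKM in valine libraries (95.8 to 96.5%) and 95.1 ± 0.477% in control libraries (94.4 to 95.4%), which did not overlap. The germ cell sum was 24.9 ± 2.10 times the Oxct1 level in valine libraries and 19.3 ± 1.86 times in control libraries.

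Bdh1, the mitochondrial beta-hydroxybutyrate dehydrogenase, was the least abundant of the 6. It measured 13.5, 12.8, 11.7 and 14.98 FPKM in the valine libraries, against 8.78, 12.1, 12.6 and 13.8 FPKM in the control libraries. The groups overlapped, with control replicate 1, the library with the most fat and epididymis marker signal, the lowest. The means were 13.2 ± 1.38 FPKM in valine libraries and 11.8 ± 2.15 FPKM in control libraries, a log2 difference of 0.16 ± 0.14.

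Of the carriers, Slc16a1 was lower in the valine testes and Slc16a7 was not separated. Slc16a1, the carrier MCT1 of lactate, pyruvate and ketone bodies, measured 16.4, 14.996, 15.8 and 15.2 FPKM in the valine libraries, against 20.2, 21.3, 19.0 and 17.8 FPKM in the control libraries. Every valine library lay below every control library, although the gap between valine replicate 1 and control replicate 4 was small. The means were 15.6 ± 0.639 FPKM in valine libraries and 19.6 ± 1.52 FPKM in control libraries, a log2 difference of -0.31 ± 0.07. Slc16a7, the high-affinity carrier MCT2, measured 146, 133, 116 and 153 FPKM in the valine libraries, against 126, 129, 133 and 153 FPKM in the control libraries. Replicate 4 was highest in both groups and valine replicate 3 was the lowest of all. The means were 137 ± 16.4 FPKM in valine libraries and 135 ± 12.3 FPKM in control libraries, a log2 difference of 0.01 ± 0.10, which took a negative sign with some of the scalings tried. Slc16a1 made up 10.3 ± 1.24% of the FPKM of both carriers in valine libraries and 12.7 ± 1.71% in control libraries, with overlap.

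The order of the 6 levels in FPKM, a unit per transcript length, was the same in all 8 libraries: Oxct2a, Oxct2b, Slc16a7, Oxct1, Slc16a1 and Bdh1. Within each group the ranges of neighbours in that order did not overlap. The closest were Slc16a1 and Bdh1 in the valine libraries, where the lowest Slc16a1 value was 14.996 FPKM and the highest Bdh1 value 14.98 FPKM, and Oxct2a and Oxct2b in the valine libraries, at a lowest of 383 FPKM and a highest of 382 FPKM. Over the tested genes the mean of Oxct2a stood at the 98.2nd percentile, that of Slc16a7 at the 94.0th and that of Bdh1 at the 59.5th. Spread within a group was smallest for Oxct2b in control libraries, with a coefficient of variation of 3.87%, and largest for Bdh1 in control libraries, at 18.2%.

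In the limma fit across all 22077 tested genes, 2 of the 6 were past an adjusted p of 0.05 as higher with valine, beside 4.32% of all tested genes, and 1 was past it as lower, beside 4.41%, which makes 3 in either direction, beside 8.73%. Every valine library was above every control library for 2 of the 6, beside 8.99% of all tested genes, and below for 1, beside 9.39%, which makes 3 in either direction, beside 18.4%. As the genes were listed with this contrast known, nothing is read from these counts. The side of the threshold depended on the processing for all 3. Oxct2a was past it in 17 of 20 alternative settings and Oxct2b in 14, and neither was past it after scaling to equal totals, after quantile normalisation or after removal of a trend with exon length. Leaving out control replicate 1 or control replicate 2 also took Oxct2b back across it. Slc16a1 was past it in 9 of 20, and leaving out any 1 library other than control replicate 4 took it back across. The signs of the 3 differences held in all 20 settings, with log2 differences of 0.12 to 0.32 for Oxct2a, 0.14 to 0.33 for Oxct2b and -0.42 to -0.24 for Slc16a1.

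**Figure D2:**
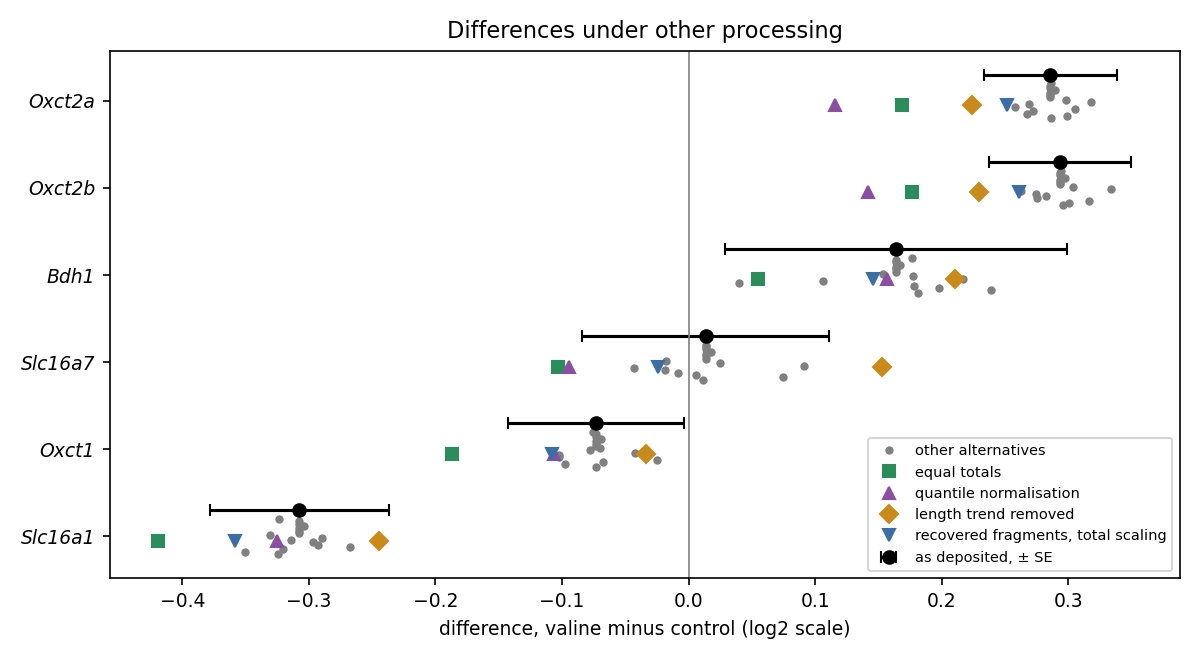
Log2 difference, valine minus control, of each of the 6 genes (horizontal axis) as deposited (black, ± SE) and under the 20 alternatives (coloured symbols for the 4 in the legend, grey points for the rest). Oxct2a and Oxct2b stay above 0 at 0.12 or more and Slc16a1 stays below 0 at -0.24 or less, while points of Slc16a7 fall on both sides of 0.

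The genes whose levels most resembled each of the 6 over the 8 libraries were found by Pearson r of log2(FPKM + 1) among 9623 genes, and are given as a description, since libraries of the same group share their treatment and tissue makeup. Nearest to Oxct2a were Dnajc7 (r = 0.992), Med9 (0.991) and Hspa1l (0.989), the last a heat shock protein gene of spermatids. Nearest to Oxct2b were Cep89 (0.995), Gsg1 (0.992), a germ cell gene, and Hyls1 (0.988). The r between Oxct2a and Oxct2b was 0.932. Slc16a1 was closest to Wdr35 (0.994), Asah1 (0.984) and Jak1 (0.983), and Slc16a7 to Prcp (0.984), Tuba8 (0.977) and Zfp597 (0.977). The values for the 2 remaining genes were lower, with Egr4 (0.950), Prps1 (0.922) and Prkab2 (0.921) for Oxct1 and Otub1 (0.962), Dnttip2 (0.951) and Rpl14 (0.940) for Bdh1.

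Cell markers moved alongside. Of 12 elongating spermatid markers 9 rose with valine and 0 fell by the limma test, and their summed level was 61113 to 73802 FPKM in valine libraries and 48653 to 50818 FPKM in control libraries. Prm3, Tnp1 and Prm1 rose by log2 differences of 0.53, 0.48 and 0.47 (limma adjusted p = 0.00721, 0.0135 and 0.0160). Tnp1 and Prm1 encode proteins that replace histones in the spermatid nucleus. Prm3 stayed past the threshold in all 20 alternatives and Tnp1 and Prm1 in 17 each, both being lost under quantile normalisation and with the length trend removed, Tnp1 also with the replicate block and Prm1 also with no filter. The summed Oxct2a and Oxct2b level, set against that marker sum, was 11.6 ± 0.462 per 1000 marker FPKM in valine libraries (10.9 to 11.98) and 12.5 ± 0.375 in control libraries (12.03 to 12.9). That marker sum was mostly Prm2, Tnp2 and Prm1, which averaged 15537, 15526 and 14362 FPKM in valine libraries. Their ratios of means, valine over control, were 1.38, 1.35 and 1.39. Over the 12 markers that ratio ran from 0.968 (Akap3) to 1.45 (Prm3), beside 1.22 for the Oxct2a and Oxct2b sum. The level per marker FPKM therefore depends on which markers are summed. Of 10 round spermatid markers 3 rose, among them Acrbp and Tssk6, and 1 fell, Tssk2. Their sum was 2442 to 2798 FPKM in valine libraries and 2442 to 2756 FPKM in control libraries. Tssk2, the most abundant of the 10 by mean in both groups, averaged 509 FPKM in valine libraries and 745.5 FPKM in control libraries. The log2 difference was positive for 9 of the 10, and for 4 every valine library lay above every control library. In bulk tissue, more or fewer cells of a type and more or less RNA per cell cannot be told apart, and the part of these markers in the Oxct2a and Oxct2b values was not tested.

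Summed levels of Sertoli and earlier germ cell markers overlapped between the groups. Sertoli markers, in which 1 of 10 rose (Rhox8, past the threshold in 8 of 20 alternatives), summed to 747 to 812 FPKM in valine libraries and 760 to 853 FPKM in control libraries. Spermatocyte markers summed to 2463 to 2595 FPKM in valine libraries and 2270 to 2486 FPKM in control libraries, and of 8 Ccna1 rose, in 7 of 20 alternatives as well, and Stag3 fell, in all 20 as well. Of 7 spermatogonia markers 2 fell, Kit and Zbtb16, and 0 rose, with sums of 106 to 124 FPKM in valine libraries and 93.9 to 114 FPKM in control libraries. Over the 7 the median log2 difference was 0.12, with 4 positive and 3 negative. Every valine library lay above every control library for 3 of them and below for 2. Markers of the labelled tissue, among them the protamine genes and the Leydig genes, were present in all 8 libraries.

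Both acetoacetyl-CoA thiolase genes, Acat1 and Acat2, were lower in the valine testes. Of 5 further ketone body enzyme genes on the list 3 were tested, of which 2 fell, beside 4.41% of all tested genes, and 0 rose, beside 4.32%. Their median log2 difference was -0.37, against 0.02 over all tested genes. Hmgcll1 and Bdh2 lay below 1 FPKM on average.

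Acat1 encodes the acetoacetyl-CoA thiolase of mitochondria, and Acat2 that of the cytosol. Whether either enzyme worked in synthesis, in breakdown or in another pathway was not tested. Acat1 averaged 18.9 ± 1.31 FPKM in valine libraries and 24.7 ± 2.19 FPKM in control libraries (log2 difference -0.37 ± 0.08, limma adjusted p = 0.0288). Acat2 averaged 15.5 ± 1.41 FPKM in valine libraries and 22.0 ± 3.85 FPKM in control libraries (-0.47 ± 0.12, limma adjusted p = 0.0465). Every valine library lay below every control library for both genes. Both sat near the threshold: Acat1 stayed past it in 13 of 20 alternatives and Acat2 in 7. Leaving out any 1 library ended the call of Acat2, and leaving out any 1 other than control replicates 3 and 4 ended that of Acat1. Aacs, the cytosolic acetoacetyl-CoA synthetase, averaged 14.98 ± 1.78 FPKM in valine libraries and 15.6 ± 1.14 FPKM in control libraries and did not pass (limma adjusted p = 0.738).

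**Figure D3:**
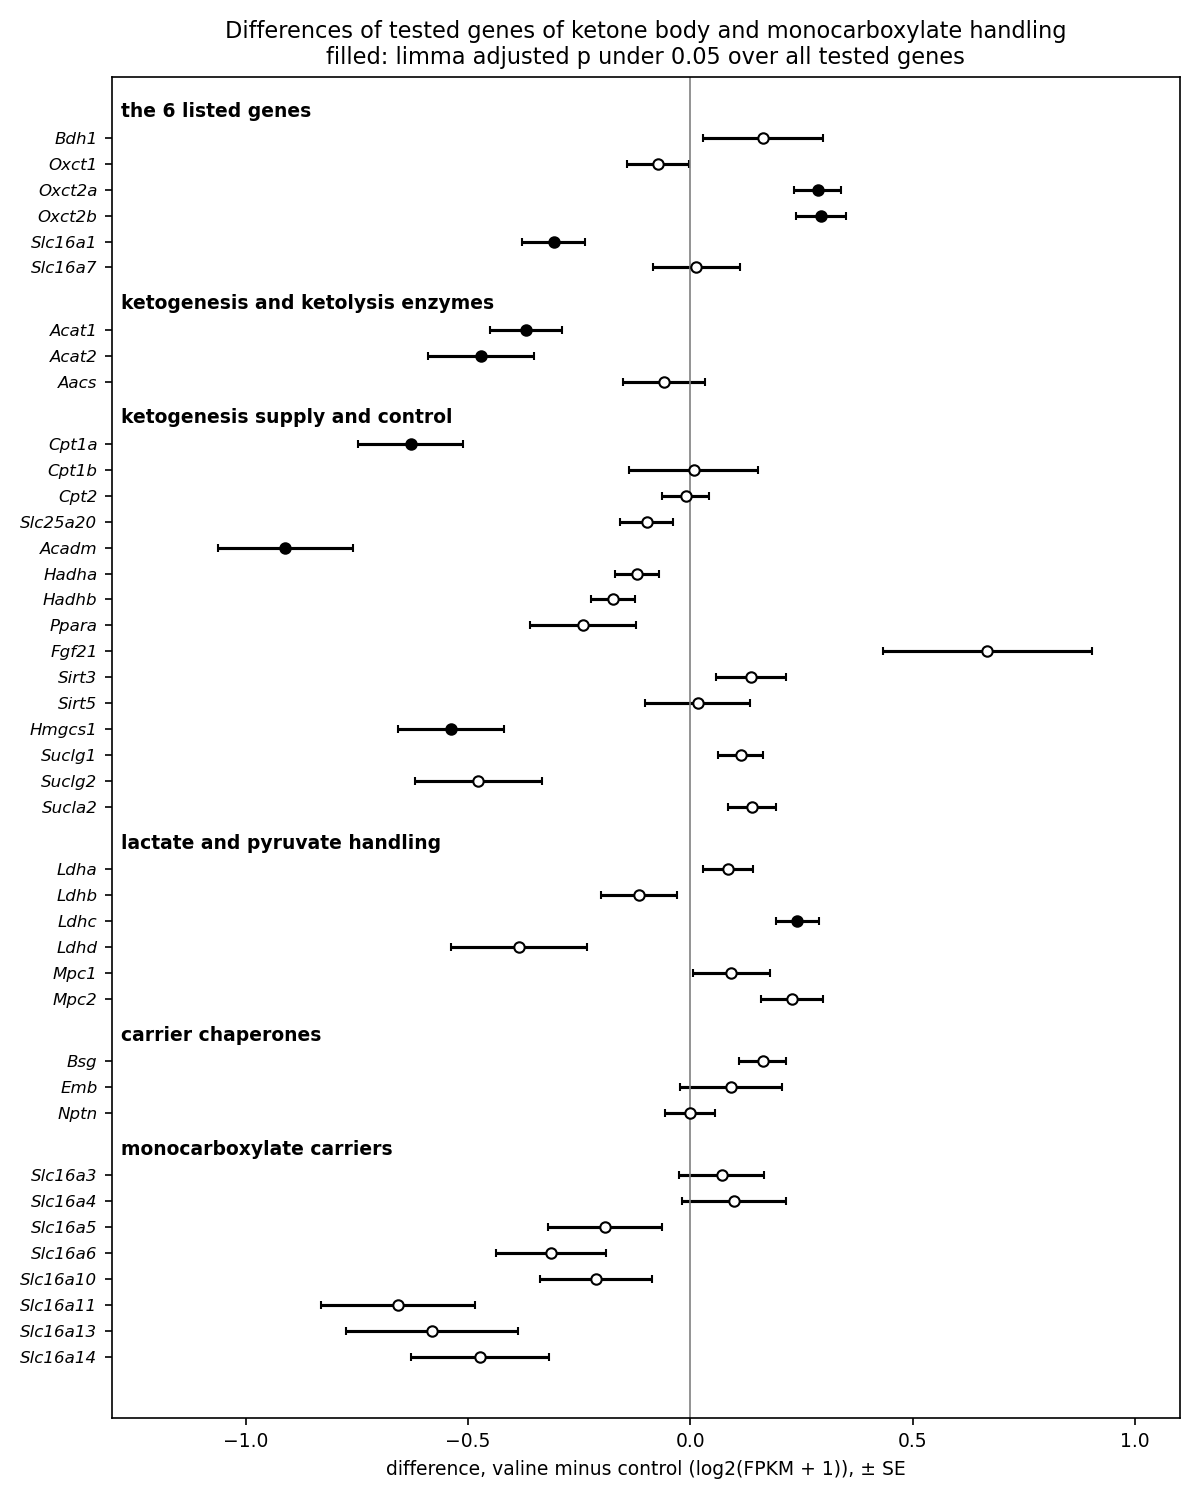
Log2 difference, valine minus control, ± SE of each tested gene by role, with filled circles for limma adjusted p under 0.05 over all tested genes. Acadm at -0.91 lies furthest from 0, Oxct2a, Oxct2b and Ldhc are the filled circles to the right of 0, and no other monocarboxylate carrier than Slc16a1 is filled. For the 6 listed genes the fill is a description only.

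Genes that supply or control ketogenesis were described from a list of 16, of which 15 were tested. By the limma test 3 of them fell, beside 4.41% of all tested genes, and 0 rose, beside 4.32%, with a median log2 difference of -0.10. Acadm, the medium-chain acyl-CoA dehydrogenase of fatty acid oxidation, averaged 7.26 ± 0.655 FPKM in valine libraries and 14.8 ± 3.46 FPKM in control libraries (log2 difference -0.91 ± 0.15, limma adjusted p = 0.0111). Cpt1a, which admits long-chain fatty acids to mitochondria, averaged 9.53 ± 1.16 FPKM in valine libraries and 15.3 ± 1.99 FPKM in control libraries (-0.63 ± 0.12, limma adjusted p = 0.0169). Hmgcs1, the cytosolic HMG-CoA synthase that works in cholesterol synthesis rather than ketogenesis, averaged 29.8 ± 2.49 FPKM in valine libraries and 44.1 ± 7.61 FPKM in control libraries (-0.54 ± 0.12, limma adjusted p = 0.0296). Acadm held in all 20 alternatives, Cpt1a in 19, being lost without control replicate 1, and Hmgcs1 in 12, being lost without any 1 valine library, without control replicate 4, with no filter, with the length trend removed and with the replicate block.

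Markers of interstitial cells fell beside these enzymes. All 8 Leydig markers fell, with a median log2 difference of -1.91, and their sum was 474 to 766 FPKM in valine libraries and 1601 to 2269 FPKM in control libraries, with none at 0. The 3 that fell most were Cyp11a1 (-2.52), Hsd17b3 (-2.36) and Hsd3b1 (-2.10), enzymes of androgen synthesis. Of 6 macrophage markers 4 fell, led by Ctss, Lyz2 and Csf1r, with sums of 28.1 to 34.6 FPKM in valine libraries and 69.5 to 85.3 FPKM in control libraries. Of 7 peritubular and stromal markers 4 fell, led by Dcn, Col1a2 and Pdgfra, with sums of 40.7 to 53.0 FPKM in valine libraries and 85.8 to 115 FPKM in control libraries. Of 5 tested endothelial markers 4 fell, led by Eng, Esam and Cdh5, with sums of 13.0 to 14.5 FPKM in valine libraries and 24.7 to 30.2 FPKM in control libraries. Of 5 tested fat markers 1 fell (Plin1), which passed in 10 of 19 alternatives and was lost without any 1 library other than control replicate 4. The 1 tested liver marker and the 5 red cell markers did not pass the limma test, with 0 at an unadjusted p under 0.05 and 0 by voom, and no epididymis marker was tested. The mean of the summed Leydig level with valine was 0.332 of that in control, and the mean of Slc16a1 was 0.797 of that in control. The part of these markers in the values of Acat1, Acat2, Acadm, Cpt1a, Hmgcs1 or Slc16a1 was not tested.

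**Figure D4:**
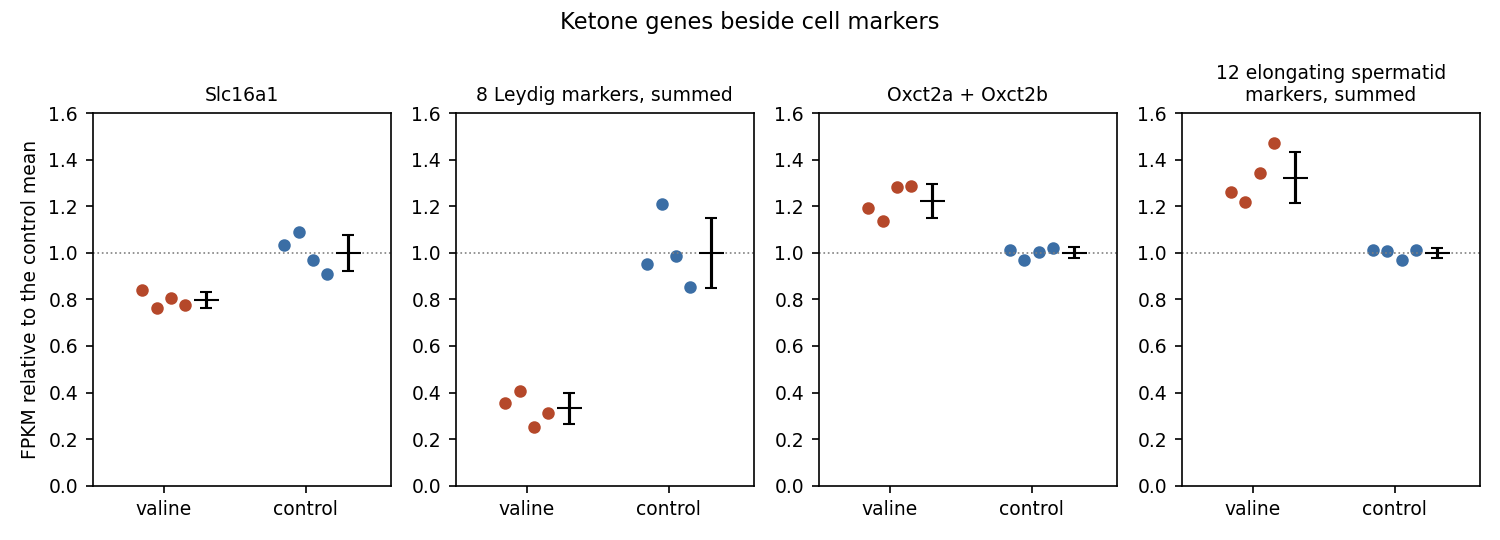
FPKM of Slc16a1, the summed 8 Leydig markers, summed Oxct2a and Oxct2b, and the summed 12 elongating spermatid markers in each library, divided by the control mean, with valine in red, control in blue and the mean ± SD beside them. The means of Slc16a1 and of the Leydig sum lie at 0.797 and 0.332 of the control mean in valine libraries, and the Oxct2a and Oxct2b sum and the elongating spermatid sum at 1.22 and 1.32.

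None of the other monocarboxylate carriers passed the test. Of 13 listed, 8 were tested, with a median log2 difference of -0.26, and 0 passed in limma, although 4 had an unadjusted p under 0.05 and 1, Slc16a11, passed in limma voom on recovered fragments. Slc16a11 averaged 1.39 ± 0.454 FPKM in valine libraries and 2.75 ± 0.597 FPKM in control libraries (log2 difference -0.66 ± 0.17, limma adjusted p = 0.0527). It passed in 4 of 19 alternatives, with adjusted p-values of 0.0323 to 0.124 over all 19. Slc16a13, Slc16a14 and Slc16a6 had log2 differences of -0.58, -0.47 and -0.31. Slc16a10, an aromatic amino acid carrier, was at -0.21, Slc16a5 at -0.19, Slc16a3, the lactate exporter MCT4, at 0.07 and Slc16a4 at 0.10. The most abundant of the 8, Slc16a3, averaged 7.81 FPKM in valine libraries and 7.40 FPKM in control libraries.

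The chaperones that carry these transporters to the membrane did not pass either. Bsg, the basigin partner of MCT1, averaged 666 ± 33.9 FPKM in valine libraries and 595 ± 29.2 FPKM in control libraries, without overlap (log2 difference 0.16 ± 0.05, limma adjusted p = 0.0936). Emb, embigin, the partner of MCT2, averaged 5.97 FPKM in valine libraries and 5.51 FPKM in control libraries (limma adjusted p = 0.667), and Nptn averaged 15.4 FPKM in both groups (limma adjusted p = 0.999). Of the 3, 0 passed by voom and 1 had an unadjusted p under 0.05.

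Lactate and pyruvate genes, whose products share the carriers with ketone bodies, held 1 gene of 6 tested that rose, beside 4.32% of all tested genes, and 0 that fell, beside 4.41%. Ldhc, the lactate dehydrogenase of male germ cells, rose: it measured 5278, 4925, 5110.1 and 5639.8 FPKM in the valine libraries, against 4377, 4369, 4402 and 4564.5 FPKM in the control libraries. The groups did not overlap (log2 difference 0.24 ± 0.05, limma adjusted p = 0.0207), and the call held in 12 of 20 alternatives, with losses under equal totals, quantile normalisation, removal of the length trend, no filter and no mean-variance trend, and without valine replicate 1 or control replicate 1 or 2. Mpc2 and Mpc1, subunits of the mitochondrial pyruvate carrier, had log2 differences of 0.23 and 0.09 (limma adjusted p = 0.0819 and 0.549). The groups did not overlap for Mpc2, at 86.9 to 105.1 FPKM in valine libraries and 77.6 to 85.6 FPKM in control libraries, and it passed in 1 of 20 alternatives, with the length trend removed (limma adjusted p = 0.0413, range over the 20 from 0.0413 to 0.275). The somatic dehydrogenase genes Ldha and Ldhb had differences of 0.08 and -0.12, and the D-lactate dehydrogenase Ldhd of -0.39, and none of these passed. The beta-hydroxybutyrate and lactate receptors Hcar2 and Hcar1 and the fatty acid receptor Ffar3 were listed at 0 to 0.163 FPKM in every library and were not tested.

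Over all 47 further genes found in the table from these lists, 35 were tested, of which 1 rose, beside 4.32% of all tested genes, and 5 fell, beside 4.41%, with a median log2 difference of -0.10. The count that fell was 2 without valine replicate 1, 2 or 4 or control replicate 1, and 3 without valine replicate 3 or control replicate 2. The 1 that rose was not past the threshold without valine replicate 1 or control replicate 1 or 2. The lists had been drawn up with earlier results of these libraries known, so the counts describe the lists and are not independent evidence of a direction.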

How the data were processed

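RNA from whole mouse testis was sequenced after Illumina TruSeq library preparation, per the labels' protocols, in 4 valine and 4 control libraries. HISAT2 and build GRCm39 are named in the submitters' processing notes. The authors deposited 1 table of FPKM (fragments per kilobase of transcript, divided by a denominator for each library) for 55414 Ensembl genes. The counting program and annotation release are not given in the sources used here. All 8 sample columns were used and 0 were left out. No 2 libraries held identical values. The labels name no batch. Some genes of these pathways are not reported here.

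Symbols came from the gene name table of the reference set, which named 52081 genes. The 6 genes, the pathway lists and the marker lists were chosen with earlier results of these data known. The 22077 genes whose mean reached 1 FPKM were fitted with limma 3.58.1 in R 4.3.3 on log2(FPKM + 1), with treatment as the only term and a mean-variance trend, two-sided, with Benjamini-Hochberg adjustment at 0.05. The fit was tested on simulated data with known answers.

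Multiplied by GENCODE vM21 exon length, low FPKM values were whole multiples of 1 fragment in 98.4 to 98.5% of cases (tolerance 0.03 fragments plus the rounding of the table). This gave fragments per gene. The denominators behind the FPKM, 6643089 to 7674930 fragments, were 0.377 to 0.399 of the recovered totals. They followed median-of-ratios size factors, at 7119422 to 7175544 fragments per unit of size factor in all 8 libraries, rather than those totals, so FPKM sums need not be equal between libraries. Whole fragments were tested with limma voom as an alternative chosen after seeing the data. Counting error is the only error that fragment numbers describe.

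Named genes were the 6; every gene averaging at least 1 FPKM of the enzyme, carrier, chaperone and lactate lists; of the supply list, those past the threshold; of each marker list, up to 3 past it by size; and for each of the 6, the 3 with the highest r. The receptors and host genes were added after their values were seen. Transcripts were compared in build GRCm38 (GENCODE vM21), aligned with Biopython 1.88, and no coordinates of that build were joined to the table. The alternatives were another pseudocount (0.1), no filter or a minimum mean of 5 FPKM, 3 other scalings, removal of a length trend (loess span 0.3), 2 forms of moderation, the replicate number as a block, and leaving out each library.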

Additional observations from a re-analysis of the deposited data

Results flagged for a closer look

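In 86 groups of 4 libraries, covering the 6 genes, the 35 tested genes of the pathway lists, the summed Oxct2a and Oxct2b level and its share of transferase FPKM, 5 single libraries lay far from the other 3 of their group by Dixon's criterion. Chance alone marks about 1 in 20 such groups. Acat1 was 16.9 FPKM in valine replicate 3, against 19.3 to 19.8 FPKM in the other valine libraries. Among control libraries, Ldhc was 4564.5 FPKM in replicate 4, against 4369 to 4402 FPKM in the others. Sucla2, a subunit gene of succinyl-CoA synthetase, was 272 FPKM in control replicate 1, against 302 to 306 FPKM in the other control libraries. Fgf21, a fasting hormone gene, was 3.42 FPKM in control replicate 3, against 1.82 to 1.92 FPKM in the other control libraries. In the valine libraries Fgf21 was 2.53 to 6.22 FPKM, and it did not pass (log2 difference 0.67 ± 0.24, limma adjusted p = 0.119). Ppara, the nuclear receptor that controls ketogenesis in liver, was 6.75 FPKM in control replicate 2, against 6.02 to 6.14 FPKM in the other control libraries. None of the 6 genes was marked. Sucla2, Fgf21 and Ppara are named here because of these values.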

How the results depend on the processing

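The log2 differences of Oxct2a, Oxct2b and Slc16a1 kept their sign in all 20 alternatives. Scaling to equal totals, which shifted the median of all genes by -0.10, gave log2 differences of 0.17 for Oxct2a, 0.18 for Oxct2b, -0.19 for Oxct1 and -0.42 for Slc16a1. Quantile normalisation gave 0.12 for Oxct2a and 0.14 for Oxct2b. Leaving out 1 library gave 0.26 to 0.32 for Oxct2a, 0.26 to 0.33 for Oxct2b, -0.35 to -0.27 for Slc16a1, -0.10 to -0.03 for Oxct1, 0.04 to 0.24 for Bdh1, -0.04 to 0.09 for Slc16a7 and 0.847 to 1.18 percentage points for the germ cell share of transferase FPKM.

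Of the 6 genes, 2 were called higher and 1 lower. With no filter 0 were called lower. Under equal totals, and under quantile normalisation, 0 were called higher. With the length trend removed 0 were called in either direction, and without the mean-variance trend 1 was called higher and 0 lower. With 1 library left out, 1 to 2 were called higher and 0 to 1 lower. Of the other listed genes 1 rose and 5 fell. The counts were 0 and 3 with no filter, 0 and 9 under equal totals, and 0 to 1 and 2 to 4 with 1 library left out. Quantile normalisation gave 0 higher, omission of the mean-variance trend gave 0 higher, and removal of the length trend gave 2 lower, and recovered fragments scaled to their total gave 8 lower.

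Over all tested genes 954 rose and 974 fell. The split was 363 higher and 2022 lower under equal totals, 398 and 1029 under quantile normalisation, and 804 and 1559 for recovered fragments scaled to their total, an alternative chosen after seeing the data. No filter gave 568 higher, and no mean-variance trend 503 higher. With 1 library left out, 381 to 795 rose and 461 to 802 fell, and leaving out any valine library or control replicate 1 or 2 moved a count by over 1.5 times.

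The labels do not pair the libraries by replicate number. The deviations of same-numbered libraries correlated at -0.02, -0.04, 0.10 and 0.11. By these deviations 2 of 4 valine libraries correlated best with the control library of their own number. Each correlation was taken over the tested genes, and 4 same-numbered pairs are too few to show whether the numbers pair the libraries. With the replicate number as a block, 581 genes rose and 489 fell, 0 of the 6 genes were called lower, and 3 of the other listed genes fell.

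Signs that reversed belonged to genes not past the threshold. Under equal totals the log2 difference of Emb was -0.00867, of Ldha -0.0330, of Mpc1 -0.0160 and of Slc16a3 -0.0331. That of Ldha was -0.0689 under quantile normalisation. Nptn, at -0.00013 as deposited, was 0.00341 under equal medians, 0.0901 with the length trend removed, and -0.0171 to 0.0240 with 1 library left out, above 0 without valine replicate 3 or control replicate 3. The cause of these changes was not tested.

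The low carriers were counted thinly, with 18 to 26 fragments of Slc16a14 in each valine library and 27 to 50 in each control library. A gene that did not pass is not shown to be equal between the groups.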
